A study of Homo sapiens with 12 samples.

Results

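Interferon-stimulated genes and nucleic acid sensors were examined as 48 genes named in a list, out of 58302 genes in the deposited count table. The list was set by gene name, without a cutoff on measured values, but with earlier results of these data known. It holds 4 transcription factors, 4 sensors, 3 adaptors or kinases and 37 effectors. Type I and type III interferons are secreted proteins that bind receptors on the cell surface and act through JAK kinases on transcription factors that include STAT2 and IRF9. These bind the interferon-stimulated response element (ISRE) in the promoters of the responding genes. Upstream of interferon, RIG-I (*RIGI*) and MDA5 (*IFIH1*) sense RNA in the cytosol and signal through *MAVS*, cGAS (*CGAS*) senses DNA and signals through *STING1*, and the kinase *TBK1* acts downstream of both. Many of these sensors and factors are themselves interferon-stimulated, and retroelement nucleic acids such as those of LINE-1 (L1) are known ligands of these sensors.

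The cells are NCI-H520, a human line that the labels describe as lung squamous cell carcinoma. The study overexpressed *L1-FGGY*, a chimeric transcript of L1 and the carbohydrate kinase gene *FGGY*, from a lentivirus in a stable line. RNA of 12 samples was sequenced in 4 groups of 3. The groups are *L1-FGGY* cells in DMSO, *L1-FGGY* cells with 10 μM of the 12-lipoxygenase inhibitor ML355, *L1-FGGY* cells by their label with 450 μM of the reverse transcriptase inhibitor NVR, and cells titled CTRL in DMSO. DMSO was at 0.2% in the groups named DMSO, and the medium was exchanged 5 h after seeding. The share of DMSO in the ML355 and NVR groups is not given in the sources used here. By the labels and the methods of the study, all groups share the line and the culture medium. In the study the control line carries an empty vector, while the labels name it only as CTRL. The promoter of the construct, the number of clones behind each line and the length of treatment are not given in the sources used here. Nothing says that the 3 libraries of a group came from separate cultures started apart, so the p-values measure the spread between these libraries, which may be technical.

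The libraries fell into 2 sets, and the libraries labelled NVR did not stand with the other *L1-FGGY* libraries. The columns of the count table behind the NVR and CTRL DMSO libraries are headed only by NVR or DMSO and a number, and were matched to the sample titles by treatment and number. *FGGY* had 4782 to 7346 counts in the 6 libraries of *L1-FGGY* cells in DMSO or ML355. It had 82 to 103 counts in the libraries labelled NVR and 78 to 91 in CTRL DMSO. Over log2 CPM, the counts scaled to a common library size, Pearson's r across genes was at least 0.979 within a group, at least 0.932 within a set and between 0.706 and 0.774 across the sets. The libraries of the NVR label therefore stand with CTRL DMSO, are called the libraries labelled NVR throughout, and every direction drawn from them rests on that label. The sets also differed in epithelial genes. Summed over *EPCAM*, *CDH1*, *KRT8* and *KRT18*, the level was 3830 to 5290 CPM in CTRL DMSO, 1910 to 3170 in the libraries labelled NVR, 861 to 886 in *L1-FGGY* DMSO and 436 to 560 with ML355. *KRT8*, at a mean of 3390 CPM in CTRL DMSO and 566 in *L1-FGGY* DMSO, made up much of this sum. *EPCAM* ran the other way, with means of 1.57 CPM in CTRL DMSO, 0.859 in the libraries labelled NVR, 8.87 in *L1-FGGY* DMSO and 9.17 with ML355. Of 6 squamous markers, 1 or 2 passed 3 counts in every library of a group and 3 or 4 were at 0 throughout the group. *KRT6A* and *DSG3* were at 0 in all libraries, and *KRT5* at or near 0. *SOX2* had a mean of 16 CPM in CTRL DMSO and was at 0 in *L1-FGGY* DMSO and with ML355. *KRT14* was at 0 in CTRL DMSO and in the libraries labelled NVR, at 0.386 CPM in *L1-FGGY* DMSO and at 2.49 with ML355. The fibroblast markers summed to 106 to 123 CPM in *L1-FGGY* DMSO, 46.4 to 58.4 with ML355 and 19.6 to 25.2 in the other set. This sum rested on *COL1A1* and *DCN*, with means of 55.6 and 60.9 CPM in *L1-FGGY* DMSO and 22.9 and 0 in CTRL DMSO. *COL1A2* was at 0 and *PDGFRB* at 0.729 CPM in *L1-FGGY* DMSO. The 5 leukocyte markers summed to 2.71 to 12.7 CPM in every library, with *CD3E* and *CD68* at or near 0. Of 3 markers of plasmacytoid dendritic cells, a main source of interferon in the body, *CLEC4C* and *LILRA4* were at or near 0 in every library. The part of these differences in the results below was not tested. The construct cannot be told apart from any other difference between the sets. In bulk RNA, fewer cells of a kind and less RNA per cell cannot be told apart either.

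Total counts were 16242082 to 27004768 per library. edgeR's filter on low counts kept 17849 genes, with 45 of the 48. *MX2*, *XAF1* and *EPSTI1* were left out of the tests with at most 12, 5 and 5 counts in any library. The filter keeps a gene with enough counts in as few libraries as a single group holds. *RSAD2*, *OAS2* and *IFITM1* had few counts in every library of low *FGGY* and passed through the libraries of high *FGGY*. Folds below come from edgeR's quasi-likelihood test on the 4 group means, and a gene is called at a Benjamini-Hochberg adjusted p under 0.01 over all genes tested. A standard error (SE) is that of the fitted fold on the log2 scale. Levels are CPM scaled by the trimmed mean of M values, as mean ± SD of 3 libraries.

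Several of these genes lie side by side on GRCh38. The *IFIT* genes, *IFIT2*, *IFIT3*, *IFIT1* and *IFIT5*, lie at chr10:89283694-89421605. *OAS1*, *OAS3* and *OAS2* follow each other at chr12:112905856-113011723, and *IFITM2*, *IFITM1* and *IFITM3* at chr11:303655-329475. *CMPK2* and *RSAD2* are neighbours on opposite strands at chr2:6840570-6898239. *PARP9* and *DTX3L* start next to each other on opposite strands of chromosome 3 and overlap from 122564338 to 122564577. Where exons overlap another gene, reads may not be counted. Exon positions shared with another gene made up 43.2% in *RIGI*, 31.6% in *IFITM1*, 27.2% in *IRF9*, 23.1% in *IFI6* and 38.3% in *XAF1* on either strand. *IFITM1*, *IFITM2* and *IFITM3* are closely similar in sequence, so reads may be split between them and their separate values are uncertain.

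Promoter windows from RefSeq (GRCh38.p14, 250 bases before to 50 after the start) were available for 37 of the 48. The ISRE core GAAANNGAAA, on either strand, was in a window of 25 of these 37 (67.6%), against 4.38% of 27305 gene symbols. The gamma-activated site TTCNNNGAA was in 10 of the 37 (27%), against 9.38% of all symbols. The following 30-base stretches, read 5′ to 3′ on the strand of the gene with the core in capitals, show the element in genes that moved in different directions in the comparisons below. *ISG15*, *BST2*, *HERC5* and *RSAD2* were high in *L1-FGGY* cells in DMSO or ML355, but not in the libraries labelled NVR. *IFIH1* and *GBP1* rose with ML355, *SAMD9* and *CXCL10* fell with it, and *MX1* was low in *L1-FGGY* DMSO. Where the core lies on the other strand it reads as TTTC repeats.
*ISG15*, chr1:1013380-1013409, plus strand: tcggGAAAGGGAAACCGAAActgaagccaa
*BST2*, chr19:17405735-17405764, minus strand: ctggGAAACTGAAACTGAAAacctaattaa
*HERC5*, chr4:88457035-88457064, plus strand: aaacattatgTTTCGTTTTCcactggagct
*RSAD2*, chr2:6877622-6877651, plus strand: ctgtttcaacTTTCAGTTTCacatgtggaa
*IFIH1*, chr2:162318686-162318715, minus strand: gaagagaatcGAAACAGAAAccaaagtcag
*GBP1*, chr1:89065316-89065345, minus strand: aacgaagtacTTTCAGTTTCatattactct
*SAMD9*, chr7:93118096-93118125, minus strand: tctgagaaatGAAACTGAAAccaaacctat
*CXCL10*, chr4:76023699-76023728, minus strand: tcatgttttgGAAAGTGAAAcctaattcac
*MX1*, chr21:41431844-41431873, plus strand: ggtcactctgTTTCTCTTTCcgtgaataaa

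In *ISG15* and *BST2* overlapping cores form a run of GAAA repeats, and 13 of the 37 had more than a single core in a window. *RIGI*, *STAT2*, *TBK1*, *MAVS*, *IRF1*, *IRF9*, *OAS1*, *CMPK2*, *HERC6*, *SAMD9L*, *XAF1* and *IFI35* had no match to the ISRE core in their windows, which says only that these letters are not there. A match is a description of letters and not of binding.

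**Figure D1:**
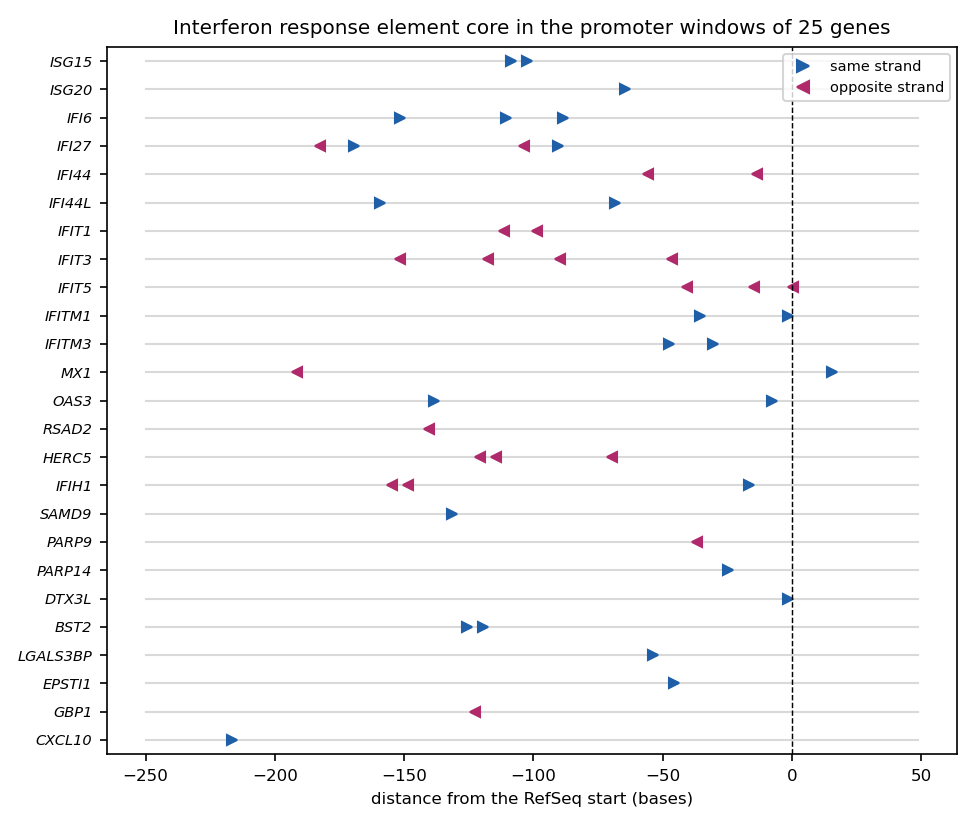
Position of each ISRE core match from the RefSeq start, in bases, for the 25 genes with a match. Triangles give the strand of the match and grey lines the window, and genes with several windows have all matches on 1 line. Most matches lie before the start, and *MX1*, *IFIT5*, *IFITM1* and *DTX3L* have matches that reach past it.

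The heat map of levels shows how the 48 genes were spread over the libraries. Their summed counts were 0.621 to 0.649% of all counts in *L1-FGGY* DMSO and 0.704 to 0.845% with ML355, against 0.118 to 0.124% in CTRL DMSO and 0.154 to 0.164% in the libraries labelled NVR. *ISG15*, a ubiquitin-like protein that is attached to other proteins, made up 20.6 to 24.0% of the summed counts in *L1-FGGY* DMSO and 29.8 to 39.8% with ML355. In CTRL DMSO, *LGALS3BP*, a secreted galectin-binding glycoprotein, made up 36.7 to 42.8% and *ISG15* less than 1%. Per kilobase of exon, the level in *L1-FGGY* DMSO was highest for *ISG15* at 1530 CPM, followed by *BST2* at 252, *LGALS3BP* at 132 and *IFI6* at 126. In CTRL DMSO it was highest for *LGALS3BP* at 137 CPM per kilobase, then *IFITM2* at 44.3, and *ISG15* was at 11.1.

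**Figure D2:**
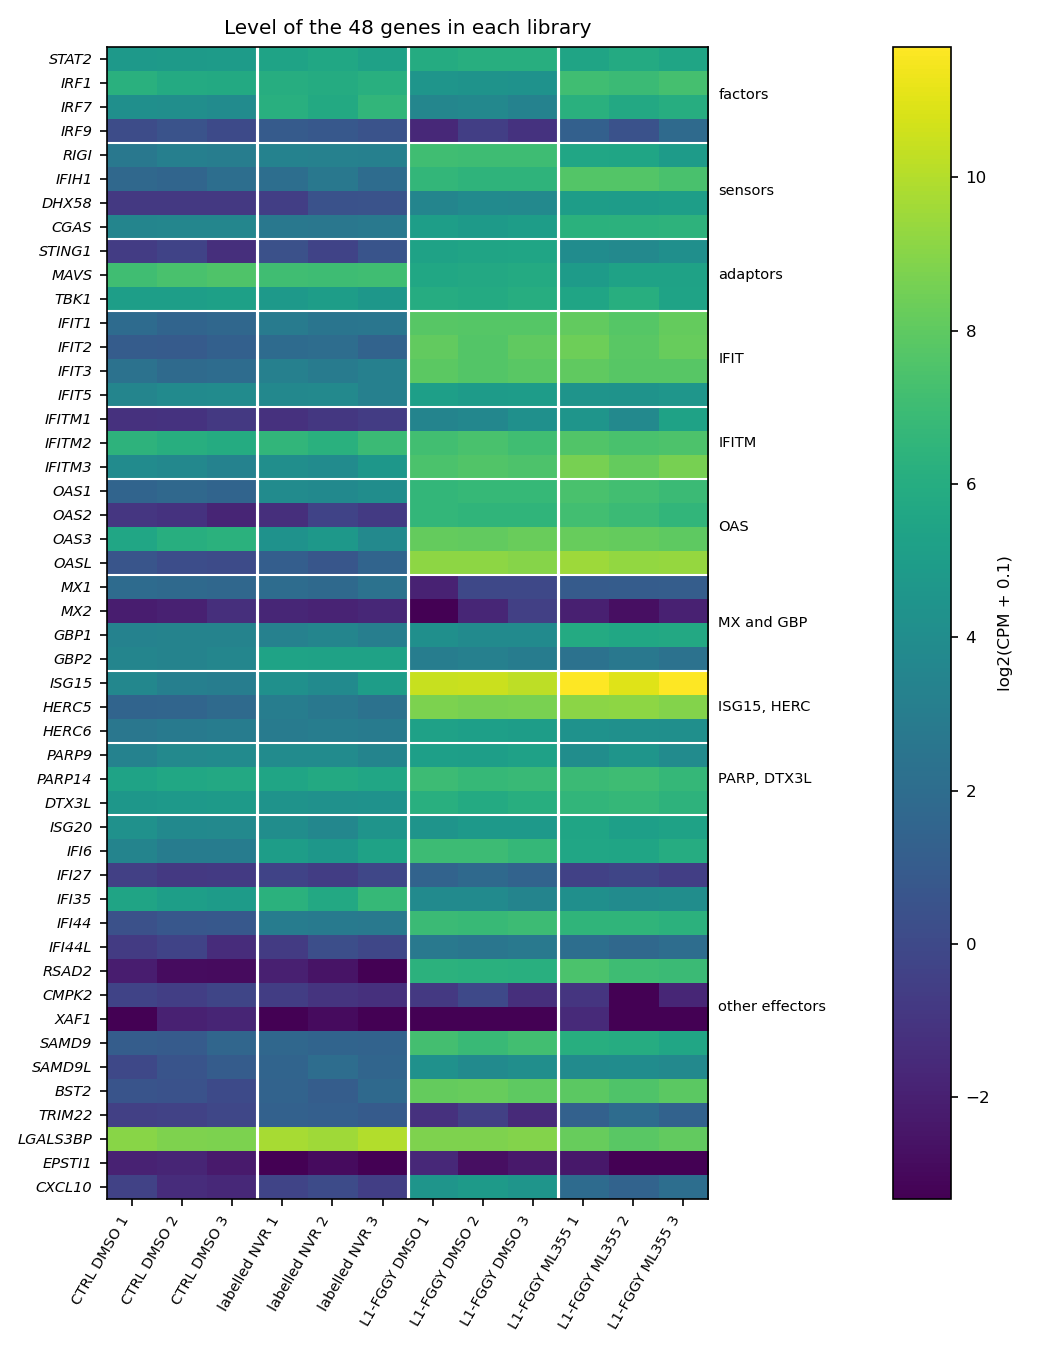
Level of each of the 48 genes (rows, by role) in each of the 12 libraries (columns), as log2(CPM + 0.1). The *IFIT* and *OAS* families, *ISG15*, *HERC5*, *BST2* and *RSAD2* are high in the 6 libraries with high *FGGY* and low in the other 6, while *MX1* and *MAVS* run the other way.

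*L1-FGGY* DMSO was compared with CTRL DMSO to ask what accompanies expression of the chimeric transcript. Most interferon effectors were far higher in *L1-FGGY* DMSO. The *OAS* and *IFIT* families, *ISG15*, *HERC5*, *BST2* and *RSAD2* led, and 15 of the 45 genes tested had a log2 fold change over 5. Of the transcription factors, *STAT2* was higher, *IRF1* and *IRF9* were lower and *IRF7* did not pass. In all, 35 of the 45 (77.8%) were called higher and 6 (13.3%) lower (*MX1*, *MAVS*, *IRF1*, *IRF9*, *IFI35* and *GBP2*), where 32.5% of all genes tested were called higher and 36.2% lower. The median log2 fold change was 2.44 over the 45 and -0.107 over all genes. The sets of libraries differed throughout the transcriptome, as these shares of all genes show. With each library left out in turn, 34 of the 35 and 4 of the 6 calls held throughout, and those of *ISG20*, *IRF9* and *GBP2* did not. A filter of at least 10 counts in every sample left fewer genes to test, with 28 called higher and 5 lower.

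The 4 members with the largest rise were *RSAD2*, *OASL*, *OAS2* and *BST2*. *RSAD2*, which encodes viperin, an antiviral enzyme, had 1405, 1409 and 1429 counts in *L1-FGGY* DMSO, 3493, 2547 and 2317 with ML355, 3, 2 and 0 in the libraries labelled NVR and 3, 1 and 1 in CTRL DMSO. It was at or near 0 in all 6 libraries of low *FGGY*. With 4243 counts in *L1-FGGY* DMSO against 5 in CTRL DMSO, scaled to library size, it was 1140-fold higher (95% interval of counting error 487 to 3500). PCR reads are not independent molecules, so such intervals cover counting error only. *OASL*, a relative of the 2′-5′ oligoadenylate synthetases that acts on RIG-I signalling, had 9783, 10895 and 9796 counts in *L1-FGGY* DMSO, 14957, 11748 and 12022 with ML355, 43, 42 and 51 in the libraries labelled NVR and 35, 27 and 25 in CTRL DMSO. Its log2 fold change was 8.87 (SE 0.22, edgeR adjusted p = 1.19e-14), and the groups did not overlap. *OAS2*, whose product makes the 2′-5′ oligoadenylates that activate RNase L, had 1703, 1725 and 1800 counts in *L1-FGGY* DMSO, 2873, 2385 and 1790 with ML355, 6, 19 and 9 in the libraries labelled NVR and 10, 9 and 5 in CTRL DMSO. On the log2 scale it was 8.16 higher (SE 0.25, edgeR adjusted p = 1.07e-13), and it passed the filter only through libraries of high *FGGY*. *BST2*, or tetherin, which holds budding virions at the cell surface, had 4917, 5727 and 4967 counts in *L1-FGGY* DMSO, 4825, 3657 and 4540 with ML355, 53, 55 and 62 in the libraries labelled NVR and 33, 33 and 24 in CTRL DMSO. It rose by 7.85 on the log2 scale (SE 0.21, edgeR adjusted p = 2.35e-14).

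All tested members of the *OAS*, *IFIT* and *IFITM* families, of *ISG15* with the *HERC* ligases and of the *PARP9*, *PARP14* and *DTX3L* group were called higher. The 4 *OAS* genes had log2 fold changes of 2.16 to 8.87 and all were called. The 4 *IFIT* genes, whose products bind viral RNA and block its translation, had log2 fold changes of 1.26 to 6.90, with *IFIT5* the least and *IFIT2* the most. *IFIT1* was at 218 ± 5.5 CPM (SD, n = 3) in *L1-FGGY* DMSO and 3.22 ± 0.504 in CTRL DMSO. *ISG15* was at 1320 ± 128 CPM against 9.66 ± 2.13, a log2 fold change of 7.10 (SE 0.32, edgeR adjusted p = 9.56e-12). *HERC5*, the ligase that attaches ISG15, rose by 7.05 and its relative *HERC6* by 2.34. The 3 *IFITM* genes, which block the entry of viruses into cells, all rose, by 5.14 for *IFITM1*, 3.88 for *IFITM3* and 1.06 for *IFITM2*. *PARP9*, *PARP14* and *DTX3L*, of a complex that modifies proteins with ADP-ribose and ubiquitin, rose by 1.5, 1.27 and 1.27. *IFI44* and *IFI44L*, neighbours on chromosome 1, rose by 6.30 and 3.68, *IFI6* by 3.72, *IFI27* by 2.44 and *CXCL10* by 6 on the same scale. *ISG20*, an exonuclease of single-stranded RNA, rose by 0.66 (edgeR adjusted p = 0.00524), a call lost when any 1 of 4 of the 6 libraries was left out (adjusted p 0.02 to 0.0265). *SAMD9* and *SAMD9L*, neighbouring antiviral restriction genes, rose by 5.87 and 3.57.

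Of the 3 guanylate-binding and dynamin-like GTPases tested from the list, 1 was called higher and 2 lower. Outside the list, *GBP3*, *GBP4* and *GBP5* had means of 29.4, 7.84 and 1.36 CPM in *L1-FGGY* DMSO. In CTRL DMSO their means were 12.2, 2.17 and 0.264 CPM. *MX1*, an antiviral dynamin-like GTPase, had 3, 16 and 17 counts in *L1-FGGY* DMSO, 38, 38 and 40 with ML355, 77, 94 and 92 in the libraries labelled NVR and 88, 89 and 81 in CTRL DMSO. All 3 *L1-FGGY* DMSO libraries lay below every other library, and the log2 fold change against CTRL DMSO was -2.42 (SE 0.35, edgeR adjusted p = 1.08e-05). *GBP1* rose by 0.58. *GBP2* had a log2 fold change of -0.42 (edgeR adjusted p = 0.0085), a call that was lost when any 1 of 5 of the 6 libraries was left out (adjusted p 0.0157 to 0.0419).

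Neighbouring genes did not always move together. *CMPK2*, a mitochondrial nucleotide kinase gene next to *RSAD2*, had 8, 17 and 6 counts in *L1-FGGY* DMSO and 17, 15 and 20 in CTRL DMSO, with a log2 fold change of -0.32 (SE 0.56, edgeR adjusted p = 0.61). *RSAD2* beside it had over 1400 counts in each of the same *L1-FGGY* DMSO libraries. *MX2* had 0 to 12 counts in every library, next to *MX1*. *XAF1* and *EPSTI1*, also interferon-stimulated, had at most 5 counts in any library, too few to pass the filter and be tested. *LGALS3BP* was at 453 ± 16.7 CPM (SD, n = 3) in *L1-FGGY* DMSO and 467 ± 47.6 in CTRL DMSO (log2 fold change -0.04, standard error 0.13, edgeR adjusted p = 0.769).

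All 4 sensors were higher in *L1-FGGY* DMSO, and the adaptors divided. *RIGI* had 2344, 2467 and 2597 counts in *L1-FGGY* DMSO, 952, 865 and 588 with ML355, 198, 260 and 166 in the libraries labelled NVR and 153, 230 and 215 in CTRL DMSO. *IFIH1* had 1738, 1646 and 1729 counts, then 4105, 3927 and 3145, then 85, 169 and 71, then 77, 74 and 108 in the same order of groups. Both RNA sensors were thus high in every library of high *FGGY*, with log2 fold changes of 4.06 (SE 0.17, edgeR adjusted p = 2.85e-12) and 4.73 (SE 0.18, edgeR adjusted p = 1.65e-12). *DHX58*, or LGP2, a relative of both that modulates their signalling, had 198, 279 and 259 counts in *L1-FGGY* DMSO, 654, 607 and 639 with ML355, 12, 35 and 24 in the libraries labelled NVR and 11, 12 and 12 in CTRL DMSO, a log2 fold change of 4.79 (SE 0.24). *CGAS* had 593, 563 and 637 counts in *L1-FGGY* DMSO, 1570, 1532 and 1573 with ML355, 126, 163 and 120 in the libraries labelled NVR and 270, 302 and 310 in CTRL DMSO, a log2 fold change of 1.45 (SE 0.10). *CGAS* thus had a smaller fold change than the other listed sensors, and its 3 libraries labelled NVR lay below all others. The DNA sensors *AIM2* and *IFI16*, outside this list and given below, had larger fold changes than *CGAS*.

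*STING1*, the adaptor of cGAS, had 710, 818 and 909 counts in *L1-FGGY* DMSO, 326, 264 and 339 with ML355, 25, 19 and 25 in the libraries labelled NVR and 13, 18 and 8 in CTRL DMSO. It was 6.37 higher on the log2 scale (SE 0.25, edgeR adjusted p = 1.51e-12). *MAVS*, the adaptor of the RNA sensors, ran the other way, with 863, 1011 and 1145 counts in *L1-FGGY* DMSO, 618, 776 and 760 with ML355, 2688, 3551 and 2499 in the libraries labelled NVR and 3245, 4331 and 4931 in CTRL DMSO. It was called lower at -1.63 (SE 0.14, edgeR adjusted p = 1.48e-08), and every library of high *FGGY* lay below every library of low *FGGY*. *TBK1* had 1112, 1114 and 1312 counts in *L1-FGGY* DMSO, 930, 1331 and 804 with ML355, 564, 889 and 458 in the libraries labelled NVR and 801, 880 and 957 in CTRL DMSO. It rose by 0.85 (SE 0.16, edgeR adjusted p = 0.000132).

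Of the transcription factors, *STAT2* alone was called higher. *STAT2* had 1065, 1297 and 1327 counts in *L1-FGGY* DMSO, 874, 1107 and 884 with ML355, 845, 1334 and 704 in the libraries labelled NVR and 668, 750 and 775 in CTRL DMSO, a log2 fold change of 1.17 (SE 0.13, edgeR adjusted p = 3.23e-07). *IRF1*, an early interferon response factor, had 392, 403 and 395 counts in *L1-FGGY* DMSO, 2724, 2353 and 2974 with ML355, 1311, 1633 and 1305 in the libraries labelled NVR and 1791, 1479 and 1479 in CTRL DMSO. *L1-FGGY* DMSO was the lowest group and ML355 the highest, without overlap, and the log2 fold change against CTRL DMSO was -1.58 (SE 0.14, edgeR adjusted p = 2.32e-08). *IRF9*, the DNA-binding partner of STAT2, had 4, 11 and 7 counts in *L1-FGGY* DMSO, 48, 25 and 69 with ML355, 37, 45 and 24 in the libraries labelled NVR and 24, 34 and 24 in CTRL DMSO. Its log2 fold change of -1.47 (SE 0.46, edgeR adjusted p = 0.00827) lost its call when any 1 of 5 of the 6 libraries was left out (adjusted p 0.0103 to 0.0408), and with the limma voom test of the study. *IRF7*, the factor that amplifies type I interferon, had 206, 248 and 196 counts in *L1-FGGY* DMSO, 1519, 1025 and 1273 with ML355, 1441, 1492 and 1696 in the libraries labelled NVR and 416, 443 and 394 in CTRL DMSO. *IRF7* was at -0.52 (SE 0.18, edgeR adjusted p = 0.0169), without overlap of the groups, and it passed as lower in DESeq2 (adjusted p = 0.00695). It also passed in edgeR with no filter on low counts, with at least 10 counts in every sample and with only these groups (adjusted p 0.000278 to 0.00827).

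**Figure D3:**
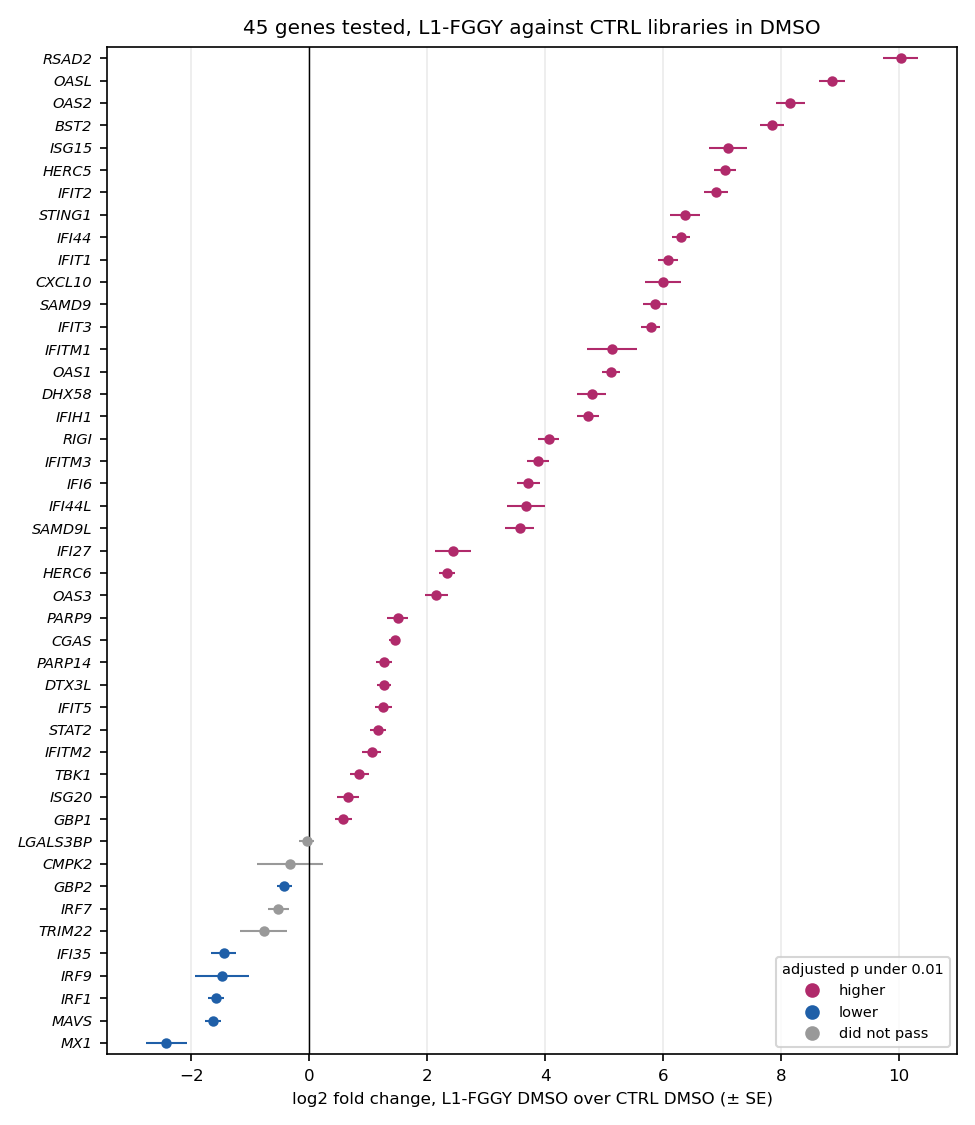
Log2 fold change of the 45 genes tested, *L1-FGGY* DMSO over CTRL DMSO, with standard errors as bars and colours for genes called higher, lower or neither. Fitted values run from 10.03 for *RSAD2*, which rests on 5 counts in CTRL DMSO, to -2.42 for *MX1*, and 35 of the 45 were called higher.

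**Figure D4:**
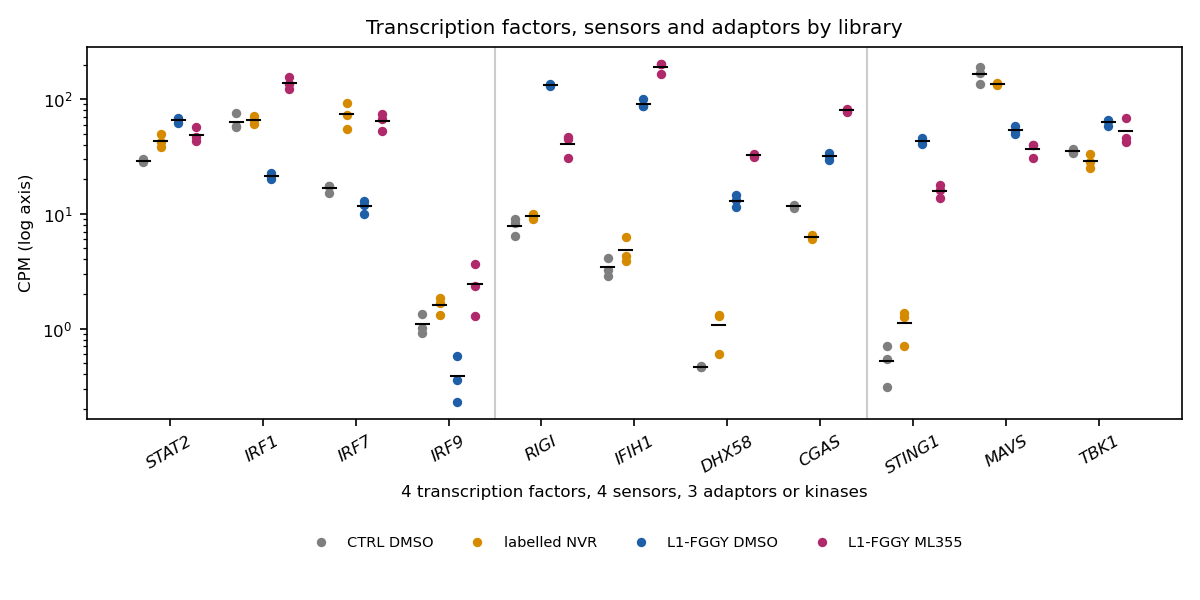
CPM on a log axis of the 4 transcription factors, 4 sensors and 3 adaptors or kinases in each library, with a bar at each group mean of 3. *RIGI*, *IFIH1*, *DHX58* and *STING1* are high in *L1-FGGY* DMSO and ML355, *MAVS* is high in the other set, and *IRF1*, *IRF7* and *IRF9* are lowest in *L1-FGGY* DMSO.

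The libraries labelled NVR were set against *L1-FGGY* DMSO as the reverse transcriptase inhibitor against DMSO, by the labels. This comparison crosses the sets of libraries and shares the *L1-FGGY* DMSO libraries with the comparison above. Of the 45 genes, 34 (75.6%) were called lower and 9 (20%) higher with the NVR label, where 35.4% of all genes tested were called lower and 38.2% higher. With at least 10 counts required in every sample, 27 were called lower and 6 higher. *RSAD2* was 983-fold lower (95% interval of counting error 421 to 3030), and *OASL*, *OAS2* and *BST2* had log2 fold changes of -7.99, -7.47 and -6.71 (SEs 0.21, 0.24 and 0.19). The 4 sensors had log2 fold changes of -4.23 to -2.34 and all were called lower. The genes called higher were *MX1*, *IRF7*, *IFI35*, *TRIM22*, *GBP2*, *IRF9*, *IRF1*, *MAVS* and *LGALS3BP*, led by *MX1* with 2.68 (SE 0.35, edgeR adjusted p = 2.9e-06) and *IRF7* with 2.66 (SE 0.19, edgeR adjusted p = 1.56e-09). *IFI35*, an interferon-induced leucine zipper protein gene, had 1533, 1435 and 1930 counts in the libraries labelled NVR, 251, 280 and 216 in *L1-FGGY* DMSO, 355, 293 and 307 with ML355 and 1050, 875 and 801 in CTRL DMSO. The call of *IFITM2* (-0.64, edgeR adjusted p = 0.00184) was lost without replicate 2 of *L1-FGGY* DMSO (adjusted p = 0.0116).

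ML355 was compared with DMSO in *L1-FGGY* cells, within the set of high *FGGY*, to ask how the 12-lipoxygenase inhibitor changes these genes. The *L1-FGGY* DMSO libraries are those of both comparisons above. The genes did not move as a block. *IRF1*, *IRF7*, *IRF9*, the sensors *IFIH1*, *DHX58* and *CGAS*, *ISG15*, *GBP1*, *MX1* and *RSAD2* were higher, and *CXCL10*, *IFI27*, *RIGI*, *STING1*, *SAMD9*, *IFI6* and *HERC6* were lower. In all, 15 of the 45 (33.3%) were called higher and 14 (31.1%) lower, where 21.3% of all genes tested were called higher and 23.5% lower. The median log2 fold change was 0.23 over the 45 and 0 over all genes. With each library left out in turn, 12 of the 15 and 10 of the 14 calls held throughout. The other 7 calls were those of *ISG20*, *OAS1*, *DTX3L*, *STAT2*, *IFI44*, *IFIT5* and *MAVS*, with log2 fold changes between -0.56 and 0.71. The summed epithelial and fibroblast markers given above were lower with ML355, and endothelial markers summed to 8.89 to 9.41 CPM in *L1-FGGY* DMSO and 0.257 to 0.69 with ML355. The part of these shifts in the changes was not tested.

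The largest rises belonged to *TRIM22* and to 3 of the 4 transcription factors. *TRIM22*, an antiviral ubiquitin ligase, had 6, 12 and 5 counts in *L1-FGGY* DMSO, 49, 74 and 48 with ML355, 49, 60 and 35 in the libraries labelled NVR and 15, 17 and 21 in CTRL DMSO. It rose by 2.82 (SE 0.36, edgeR adjusted p = 6.92e-06). *IRF1* rose from 21.2 ± 1.29 to 137 ± 17.7 CPM (SD, n = 3), a log2 fold change of 2.69 (SE 0.14, edgeR adjusted p = 5.17e-10). *IRF7* rose by 2.49 (SE 0.19, edgeR adjusted p = 2.2e-08) and *IRF9* by 2.62 (SE 0.44, edgeR adjusted p = 9.48e-05). In each of these the ML355 libraries lay above all DMSO libraries. *STAT2* went the other way, with a log2 fold change of -0.42 (edgeR adjusted p = 0.00845) that was lost when any 1 of 5 of the 6 libraries was left out (adjusted p 0.0117 to 0.0484) and with other scalings.

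The sensors divided. *CGAS* rose by 1.32 (SE 0.10, edgeR adjusted p = 2.69e-08), *DHX58* by 1.31 (SE 0.17, edgeR adjusted p = 5.87e-06) and *IFIH1* by 1.06 (SE 0.15, edgeR adjusted p = 1.94e-05). *RIGI* fell from 132 ± 2.46 to 40.8 ± 8.64 CPM (SD, n = 3), a log2 fold change of -1.69 (SE 0.15, edgeR adjusted p = 1.09e-07). The RNA sensors RIG-I and MDA5 thus changed in opposite directions, with no overlap between groups in either. Among the adaptors, *STING1* had a log2 fold change of -1.45 (SE 0.17, edgeR adjusted p = 3.53e-06) while its sensor *CGAS* rose. *MAVS* had a log2 fold change of -0.54 (edgeR adjusted p = 0.00277), lost without replicate 3 of *L1-FGGY* DMSO or replicate 1 of ML355 (adjusted p 0.015 to 0.0197). *TBK1* was at -0.27 (edgeR adjusted p = 0.157), and passed without replicate 2 of ML355 (adjusted p = 0.00379).

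*CXCL10*, a chemokine that draws T cells, fell most. It had 398, 563 and 456 counts in *L1-FGGY* DMSO, 74, 51 and 81 with ML355, 15, 26 and 11 in the libraries labelled NVR and 16, 7 and 6 in CTRL DMSO. The log2 fold change with ML355 was -2.84 (SE 0.24, edgeR adjusted p = 7.08e-08), and its ML355 libraries still lay above both groups of low *FGGY*. *IFI27*, a mitochondrial and nuclear envelope protein gene, had 47, 65 and 52 counts in *L1-FGGY* DMSO, 13, 15 and 11 with ML355, 14, 15 and 15 in the libraries labelled NVR and 15, 12 and 13 in CTRL DMSO. It had a log2 fold change of -2.12 (SE 0.31, edgeR adjusted p = 2.32e-05). *SAMD9* and *IFI6*, an inhibitor of cell death, were at -1.18 each. *LGALS3BP* was at -0.76 (edgeR adjusted p = 0.000168), and *MX1* rose by 1.63 (SE 0.37, edgeR adjusted p = 0.00141). *ISG20* was at 0.71 (edgeR adjusted p = 0.00434), and *IFI35*, *IFI44L*, *SAMD9L* and *CMPK2* did not pass (0.29, -0.74, -0.20 and -1.41). *IFI44L* passed as lower in DESeq2, in limma voom and in a fit of only these groups (adjusted p 0.00499 to 0.00901).

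Within families, ML355 moved single genes. *ISG15* had 23677, 27211 and 23469 counts in *L1-FGGY* DMSO, 67709, 39140 and 61768 with ML355, 377, 388 and 591 in the libraries labelled NVR and 287, 226 and 210 in CTRL DMSO. Its log2 fold change with ML355 was 1.11 (SE 0.25, edgeR adjusted p = 0.00111), with the ML355 libraries spread from 39140 to 67709 counts but above all DMSO libraries. *HERC6* fell by 0.93 on the log2 scale and *HERC5* was at 0.39 (edgeR adjusted p = 0.0232), though it passed in DESeq2 and limma voom (adjusted p 0.00723 and 0.00771). Of the *IFIT* genes, *IFIT1*, *IFIT2* and *IFIT3* were at 0.23, 0.23 and 0.04 and none passed, and *IFIT5* was at -0.56 (edgeR adjusted p = 0.00417), a call lost when any 1 of 4 libraries was left out (adjusted p 0.0109 to 0.0218). Of the *OAS* genes, *OAS1* passed at 0.49 (edgeR adjusted p = 0.00291), a call lost when any 1 of 3 libraries was left out (adjusted p 0.0108 to 0.0221). *OASL*, *OAS2* and *OAS3* were at 0.28, 0.36 and -0.06 and did not pass. *OAS2* passed as higher without replicate 3 of ML355 (edgeR adjusted p = 0.00888). Among the genes highest in *L1-FGGY* DMSO over CTRL DMSO, *RSAD2* rose further with ML355, by 0.91 (SE 0.15, edgeR adjusted p = 8.99e-05), while *STING1* and *IFI44* fell.

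*GBP1* and *GBP2*, neighbours at chr1:89051882-89150456, changed in opposite directions, by 1.80 (SE 0.13, edgeR adjusted p = 2.07e-08) and -0.62 (SE 0.14, edgeR adjusted p = 0.00131). *PARP9* and *DTX3L*, which start side by side, did so too, with *PARP14* at 0.02 (edgeR adjusted p = 0.94). *PARP9* had 622, 639 and 753 counts in *L1-FGGY* DMSO and 338, 434 and 286 with ML355, a log2 fold change of -0.99 (SE 0.17, edgeR adjusted p = 0.000133). *DTX3L* had 1218, 1100 and 1375 counts in *L1-FGGY* DMSO, 1960, 1998 and 1571 with ML355, 412, 529 and 372 in the libraries labelled NVR and 593, 703 and 764 in CTRL DMSO. Its log2 fold change with ML355 was 0.52 (SE 0.12, edgeR adjusted p = 0.00118), lost without replicate 2 of *L1-FGGY* DMSO (adjusted p = 0.0114). *IFITM3* rose by 0.94 (SE 0.17, edgeR adjusted p = 0.000206), with 3050, 3824 and 3622 counts in *L1-FGGY* DMSO, 7880, 5619 and 7512 with ML355, 341, 409 and 442 in the libraries labelled NVR and 358, 327 and 264 in CTRL DMSO. *IFITM1* had 186, 233 and 362 counts in *L1-FGGY* DMSO, 470, 262 and 759 with ML355, 7, 12 and 10 in the libraries labelled NVR and 8, 9 and 12 in CTRL DMSO, and overlapped between DMSO and ML355 (log2 fold change 0.89, edgeR adjusted p = 0.0148). It passed as higher with no filter on low counts (adjusted p = 1.94e-05), with a replicate block (adjusted p = 0.00306), without replicate 3 of *L1-FGGY* DMSO (adjusted p = 0.00819) and without replicate 2 of ML355 (adjusted p = 0.000612). *IFITM2* had 2469, 3159 and 2740 counts in *L1-FGGY* DMSO, 4028, 3220 and 3519 with ML355, 1862, 1976 and 2197 in the libraries labelled NVR and 1999, 1736 and 1597 in CTRL DMSO (log2 fold change with ML355 0.30, edgeR adjusted p = 0.124).

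The ISRE core was in 8 of 11 genes with a window that were called higher with ML355, 8 of 12 called lower and 8 of 12 that did not pass. For *L1-FGGY* DMSO over CTRL DMSO it was in 22 of 28 called higher and 1 of 5 called lower, which is *MX1*, shown above. For the libraries labelled NVR it was in 21 of 27 called lower and 2 of 6 called higher against *L1-FGGY* DMSO, and in 8 of 12 called higher, 2 of 2 called lower and 14 of 21 that did not pass against CTRL DMSO. These shares are descriptions, and no test was made of them.

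The libraries labelled NVR were next compared with CTRL DMSO, within the set of low *FGGY*. *IRF7*, *OAS1*, *IFI44*, *IFI6* and *GBP2* led, and *OAS3*, *CGAS* and *DTX3L* were lower. In all, 18 of the 45 (40%) were called higher and 3 (6.67%) lower, where 14.5% of all genes tested were called higher and 15.3% lower. The median log2 fold change was 0.57 over the 45 and 0 over all genes, and the largest was 2.37. With each library left out in turn, 14 of the 18 and 2 of the 3 calls held throughout. The limma voom test of the study called 14 higher and 2 lower, without the calls of *IFIT2*, *OASL*, *DHX58*, *BST2* and *DTX3L*. A fit of only these groups called 12 higher and 2 lower, and there the call of *ISG15* was lost too. Under every alternative, 11 of the 18 and 2 of the 3 calls held. Summed epithelial markers, given above, were lower than in CTRL DMSO. The leukocyte sum was higher (9.22 to 12.7 against 3.22 to 4.69 CPM) and rested on *CD14*, 1 of 5 markers over 3 counts in every library. The sum of the dendritic cell markers was also higher (27.1 to 40.4 against 12.8 to 14.3 CPM) and rested on *IL3RA*. The part of these in the results was not tested.

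*OAS1* had 303, 373 and 304 counts in the libraries labelled NVR, 66, 83 and 73 in CTRL DMSO, 1684, 2021 and 2083 in *L1-FGGY* DMSO and 3418, 2724 and 2325 with ML355. It was 2.37 higher on the log2 scale than in CTRL DMSO (SE 0.15, edgeR adjusted p = 1.54e-08). *OAS3*, its neighbour, had 408, 699 and 243 counts in the libraries labelled NVR, 1112, 1740 and 2036 in CTRL DMSO, 4895, 5189 and 6162 in *L1-FGGY* DMSO and 6039, 5447 and 4738 with ML355. The log2 fold change was -1.69 (SE 0.21, edgeR adjusted p = 1.08e-05), so that adjacent genes of a family changed in opposite directions without overlap. *IFI44*, an interferon-induced antiproliferative gene, had 159, 196 and 121 counts in the libraries labelled NVR, 29, 41 and 44 in CTRL DMSO, 2128, 2131 and 2475 in *L1-FGGY* DMSO and 1872, 1745 and 1543 with ML355, and rose by 2.27 (SE 0.15, edgeR adjusted p = 2.22e-08). *IFI6* had 664, 658 and 734 counts in the libraries labelled NVR, 261, 204 and 204 in CTRL DMSO, 2164, 2381 and 2074 in *L1-FGGY* DMSO and 980, 885 and 1179 with ML355, and rose by 1.87 (SE 0.19, edgeR adjusted p = 1.63e-06).

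*IRF7* was 2.14 higher (SE 0.18, edgeR adjusted p = 2.66e-07), at 73.5 ± 18.9 against 16.6 ± 1.33 CPM (SD, n = 3), and *STAT2* 0.58 higher, a call lost with library size as the scaling (adjusted p = 0.0444). *IRF1* and *IRF9* were at 0.06 and 0.57 and did not pass. Of the sensors, *CGAS* had a log2 fold change of -0.89 (SE 0.11, edgeR adjusted p = 1.39e-05). *DHX58* was at 1.21 (edgeR adjusted p = 0.00391), a call lost when any 1 of 5 of the 6 libraries was left out (adjusted p 0.0104 to 0.0232). *RIGI* and *IFIH1* were at 0.27 and 0.50 and did not pass (adjusted p 0.182 and 0.0406). *STING1*, at 1.05, did not pass in edgeR (adjusted p = 0.0148), but passed in DESeq2 and without replicate 2 of the libraries labelled NVR (adjusted p = 0.00206). *MAVS* and *TBK1* were at -0.30 and -0.28 and did not pass.

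*IFIT1*, *IFIT2* and *IFIT3* rose by 0.97, 0.77 and 1.06, *HERC5* by 1.10 and *ISG15* by 1.17. The calls of *IFIT2*, *OASL* and *ISG15* were lost when single libraries were left out, 5, 4 and 2 of them (adjusted p 0.012 to 0.0336, 0.0204 to 0.0385 and 0.0124 to 0.0176). For *ISG15* these were replicates 2 and 3 of CTRL DMSO. The 3 *IFITM* genes did not pass. *IFITM3*, at 0.57 (edgeR adjusted p = 0.0194), passed in DESeq2, with no filter on low counts and without replicate 2 of the libraries labelled NVR or replicate 1 of CTRL DMSO (adjusted p 0.000985 to 0.00765), and *IFITM2*, at 0.43, passed without replicate 2 of the libraries labelled NVR (adjusted p = 0.00269). *DTX3L*, at -0.43 (edgeR adjusted p = 0.00819), lost its call when any 1 of 5 of the 6 libraries was left out (adjusted p 0.0203 to 0.0406) and under 5 other settings. *IFI35*, *TRIM22*, *SAMD9L* and *BST2* rose by 1.11, 1.64, 1.19 and 1.14, the calls of *SAMD9L* and *BST2* being lost in a fit of only these groups (adjusted p 0.016 and 0.0109). *GBP2* rose by 1.83 (SE 0.13, edgeR adjusted p = 4.05e-08) and *LGALS3BP* by 0.90 (SE 0.13, edgeR adjusted p = 7.89e-05).

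**Figure D5:**
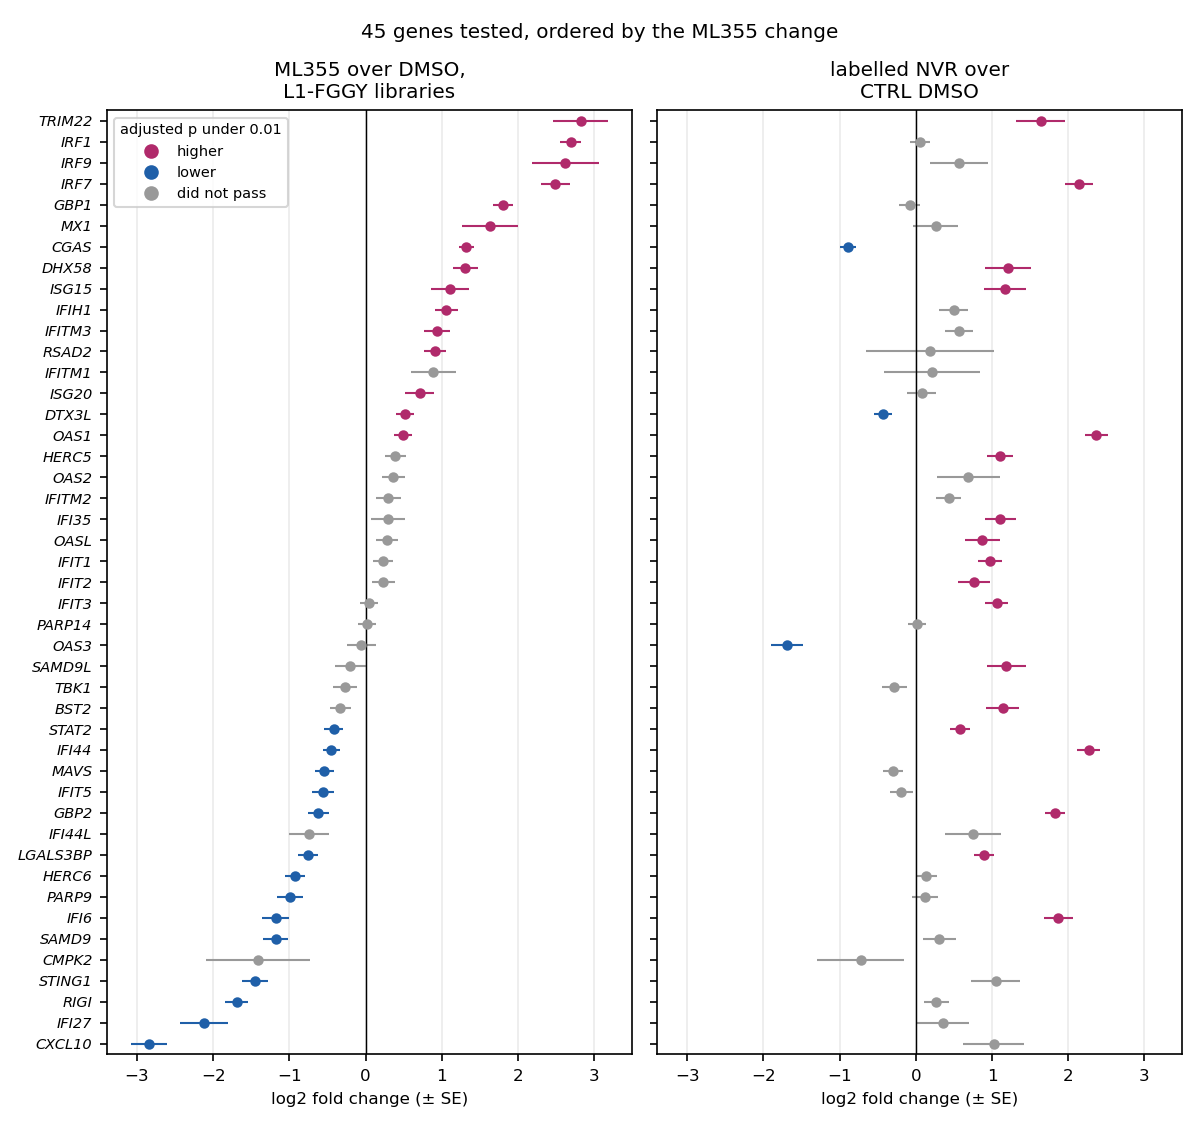
Log2 fold change with standard error of the 45 genes tested, for ML355 over DMSO in *L1-FGGY* libraries (left) and for the libraries labelled NVR over CTRL DMSO (right), in the order of the ML355 change. *IRF7*, *TRIM22*, *DHX58*, *ISG15* and *OAS1* are called higher on both sides, and *CGAS* and *DTX3L* are higher on the left and lower on the right. Some of these calls, named in the text, were lost when single libraries were left out.

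These within-set changes were compared with each other, gene by gene, since the 2 comparisons share no library. The difference is the log2 change of the NVR label over CTRL DMSO minus that of ML355 over DMSO. They have different solvent groups, cells of different *FGGY* level and different doses, so that the test asks only whether the changes were unequal. Of the 45 genes, 5 were called higher in both comparisons (*IRF7*, *ISG15*, *OAS1*, *DHX58* and *TRIM22*) and none lower in both. A further 5 were lower with ML355 and higher under the NVR label (*STAT2*, *IFI6*, *IFI44*, *LGALS3BP* and *GBP2*), and *DTX3L* and *CGAS* were the reverse. Leaving out single libraries ended the calls of *OAS1*, *STAT2* and *IFI44* with ML355. It also ended those of *ISG15* and *DHX58* under the NVR label, and those of *DTX3L* in both comparisons. Of all 17849 genes tested, 4.71% were called higher in both, 4.95% lower in both, 2.44% lower with ML355 and higher under the NVR label, and 2.86% the reverse. The difference of the changes was called for 23 of the 45 (51.1%), positive in 17 and negative in 6, where 34.1% of all genes tested were called in either direction. It was largest for *CXCL10*, at 3.86 (SE 0.46, edgeR adjusted p = 6.02e-06), *IFI6*, at 3.05 (SE 0.26, edgeR adjusted p = 1.86e-07), and *IFI44*, at 2.72 (SE 0.19, edgeR adjusted p = 2.03e-08). On the other side stood *IRF1*, at -2.64 (SE 0.19, edgeR adjusted p = 3.09e-08), and *CGAS*, at -2.21 (SE 0.15, edgeR adjusted p = 1.92e-08). For *ISG15* and *DHX58* the difference was 0.06 (SE 0.36) and -0.10 (SE 0.39) and did not pass, which with these errors does not show equal changes. Of these 23 differences, those of *IRF9* and *IFIT1* lost their call when any 1 of 10 and of 8 of the 12 libraries was left out (adjusted p 0.0117 to 0.0295 and 0.012 to 0.0323).

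The other genes of the interferon pathway were taken from a list, with 82 found in the table, of which 71 passed the filter on low counts. Of these 71, 34 were called higher and 18 lower in *L1-FGGY* DMSO against CTRL DMSO, 30 higher and 13 lower with ML355, 18 higher and 6 lower under the NVR label against CTRL DMSO, and 24 higher and 32 lower in those libraries against *L1-FGGY* DMSO. Of all genes tested, the shares called higher and lower in the same order were 32.5 and 36.2%, 21.3 and 23.5%, 14.5 and 15.3%, and 38.2 and 35.4%. The ligands were few. *IFNB1*, the first type I interferon made by most cells, had 17, 16 and 12 counts in *L1-FGGY* DMSO, 32, 16 and 13 with ML355 and 0 in the other 6 libraries. Against a floor of 3 counts over the CTRL DMSO group it was at least 20.1-fold higher in *L1-FGGY* DMSO. *IFNL1*, a type III interferon, had 6, 36 and 13 counts in *L1-FGGY* DMSO, 163, 83 and 140 with ML355 and a total of 1 count in the 6 libraries of low *FGGY*, and rose by 2.75 with ML355 (SE 0.47, edgeR adjusted p = 0.000173). *IFNE*, an interferon of epithelia, ran the other way, with 2, 4 and 3 counts in *L1-FGGY* DMSO, 0, 0 and 1 with ML355, 81, 120 and 65 in the libraries labelled NVR and 56, 50 and 50 in CTRL DMSO. *IFNL2* and *IFNL3*, which are near-identical, had at most 12 and 7 counts.

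The interferon receptors moved in both directions. *IFNLR1*, the receptor chain for type III interferon, was 3.16 higher in *L1-FGGY* DMSO than in CTRL DMSO (SE 0.23, edgeR adjusted p = 3.87e-09) and 0.89 higher with ML355 (edgeR adjusted p = 0.00104). *IFNAR1*, a chain of the type I receptor, was at 0.52 and -0.96 in the same comparisons and was called in both, and *IFNAR2* at -0.73 and -0.58, also called. *IFNGR1* was at -0.72 (called) and -0.29 (not called), and *IFNGR2* at 0.16 (not called) and 0.62 (called). *IL10RB* passed in neither. *IRF3* and *IRF5*, factors that switch on interferon genes, had log2 fold changes of -1.77 and -4.06 in *L1-FGGY* DMSO over CTRL DMSO and were called lower, and *IRF5* rose by 1.46 with ML355.

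Among negative regulators, *SOCS1*, which blocks JAK kinases, had 5, 8 and 5 counts in *L1-FGGY* DMSO, 242, 216 and 296 with ML355, 196, 205 and 196 in the libraries labelled NVR and 46, 42 and 24 in CTRL DMSO. It was higher with ML355 by 5.30 (SE 0.33, edgeR adjusted p = 2.81e-09) and in the libraries labelled NVR against CTRL DMSO by 2.64 (SE 0.25, edgeR adjusted p = 8.73e-07), and the difference of -2.66 passed (edgeR adjusted p = 0.000144). *AIM2*, a DNA sensor of the inflammasome, had 125, 134 and 156 counts in *L1-FGGY* DMSO, 33, 20 and 40 with ML355 and 0 in all libraries of low *FGGY*, at least 186-fold higher in *L1-FGGY* DMSO than the floor of 3 counts over the CTRL DMSO group. *IFI16*, a nuclear DNA sensor, was 4.58 higher (SE 0.15) in *L1-FGGY* DMSO than in CTRL DMSO and 0.51 higher with ML355 (SE 0.12). *SAMHD1*, which depletes nucleotides and restricts retroelements, had a log2 fold change of -2.43 with ML355 (SE 0.15, edgeR adjusted p = 2.23e-09). Of other targets, *CXCL11*, a chemokine that shares its receptor with CXCL10, had 342, 333 and 296 counts in *L1-FGGY* DMSO, 114, 169 and 74 with ML355, 1, 5 and 5 in the libraries labelled NVR and 2, 1 and 1 in CTRL DMSO. With 971 counts in *L1-FGGY* DMSO against 4 in CTRL DMSO, scaled to library size, it was 326-fold higher (95% interval of counting error 127 to 1199), and it had a log2 fold change of -1.51 with ML355 (SE 0.25). *IDO1*, which breaks down tryptophan, had 148, 151 and 144 counts in *L1-FGGY* DMSO, 12, 5 and 16 with ML355, 2, 0 and 5 in the libraries labelled NVR and 5, 5 and 7 in CTRL DMSO, and log2 fold changes of 5.09 over CTRL DMSO (SE 0.44) and -3.80 with ML355 (SE 0.40). These comparisons share the *L1-FGGY* DMSO libraries.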

How the data were processed

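The members and gene lists were chosen with earlier results of these data known. RNA was sequenced from NCI-H520 cells in 4 groups of 3 samples. Per the labels and the methods of the study, total RNA was made into libraries with a TruSeq kit, and the counts the authors deposited are whole-number reads per gene, aligned with STAR 2.5.3a and counted with HTSeq 0.11.2 on hg38. Names and positions were taken here from GENCODE 44. Whether strand was used in counting, and how reads with several matches were treated, is not given in the sources used here. Columns of the NVR and CTRL DMSO libraries carry no line name and were matched to titles by treatment, number and elimination.

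Counts were tested as deposited with edgeR 4.0.16 in R 4.3.3 (filter on expression, scaling by trimmed mean of M values, robust quasi-likelihood fit with a mean for each of the 4 groups), with Benjamini-Hochberg adjustment over 17849 genes and a threshold of 0.01. The script was tested on simulated data. DESeq2 1.42.0, limma 3.58.1 with voom (the test of the study), other scalings, filters and thresholds, a replicate block and leaving out each library were the alternatives. Named in full were the transcription factors, sensors and adaptors, in each comparison up to 4 members with the largest rise and fall among those called with a mean of at least 1 CPM, and the *IFITM* genes. Depth was 16242082 to 27004768 counts per library, where 3 counts are 0.111 to 0.172 CPM. Promoters came from RefSeq (GRCh38.p14). No 2 libraries of a group agreed within sampling noise (chi-square per gene at least 7.28). Same-numbered libraries did not deviate together, with correlations of -0.354 to 0.17.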

Additional observations from a re-analysis of the deposited data

How the results depend on the processing

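Over 225 fold changes of the 45 genes and 20 other settings, 3322 values were computed. Of these, 3169 kept their side of the threshold, 111 kept the direction but no longer passed, and 42 kept the direction and newly passed. Of values called in either fit, 0 reversed. A change of sign in a gene called in neither fit was not counted as a reversal. Requiring a log2 fold change of at least 1 in size left 6 genes lower with ML355 against 14, and 1 lower in the libraries labelled NVR over CTRL DMSO against 3, because the threshold is stricter. With 1 library left out, counts ranged from 13 to 16 higher and 10 to 14 lower with ML355, 14 to 19 and 2 to 3 in the libraries labelled NVR over CTRL DMSO, 34 to 35 and 4 to 6 in *L1-FGGY* DMSO over CTRL DMSO, and 9 to 9 and 33 to 35 in the libraries labelled NVR over *L1-FGGY* DMSO. The difference of changes gave 21 to 24. With a replicate block the counts in the same order were 16 and 14, 18 and 2, 35 and 4, 9 and 35, and 22. The replicate numbers do not pair the samples, and a block is no measure of the size of an effect.

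Scaling by library size alone moved the median of all genes by -0.128 with ML355, -0.156 in the libraries labelled NVR over CTRL DMSO and -0.237 over *L1-FGGY* DMSO, and ended the calls of *STAT2*, *OAS1* and *DTX3L* with ML355 and of *STAT2*, *IFIT2* and *DHX58* in the libraries labelled NVR over CTRL DMSO. The difference of changes needs all 4 groups, so a fit of only the groups compared gave no value for it. *CMPK2*, with 0 to 20 counts, had standard errors of 0.56 to 0.68 between pairs of groups.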
